A study of Arabidopsis thaliana with 31 samples.

Results

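Of the 6351 regions that gained DNA methylation in *dcl4* plants 24h upon UV-C exposure, 2378 (37.4%) also gained methylation in *ddb2* plants. A hyper-DMR is a stretch of the genome in which the methylation level was higher at 24h than at time point 0 in the same genotype. The shared hyper-DMRs were chosen by the readout: at least 50% of the length of a *dcl4* region had to be covered by *ddb2* hyper-DMRs of the same sequence context. The levels and gains of both genotypes and the length of the regions therefore entered the choice, and they are described below without a test. The set holds 2369 CHH regions and 9 CHG regions. It was compared with the 3603 *dcl4* hyper-DMRs that no *ddb2* hyper-DMR of any context overlapped, called unoverlapped here. The remaining 370 *dcl4* hyper-DMRs were in neither set, since 323 were covered over under 50% of their length and 47 were overlapped only in another context.

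The study followed the DNA methylome of Arabidopsis leaves by whole-genome bisulfite sequencing (WGBS), in which unmethylated cytosines are converted and methylated ones are not. Both mutants are in the Col 0 ecotype: *ddb2* plants carry the *ddb2-3* allele and *dcl4* plants the *dcl4-2* allele. The plants were 18 days old in vitro according to the labels, while the methods of the study add up to a few days more, and received UV-C at 3000 J/m2. By the labels and the methods, leaves were harvested directly upon exposure (time point 0) or 24h later, whereas elsewhere the study calls time point 0 the state before irradiation. A gain is therefore the level at 24h minus that at time point 0, and whether time point 0 was taken just before or just after UV-C is not settled here. Leaves of 2 biological replicates were pooled into 1 library per genotype and time point, so that no level has a replicate check. WT, *uvr3 phrI* and *ago1* (allele *ago1-27*) plants of the same ecotype, age, dose and time points are used only where they bear on the shared regions.

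Plants methylate cytosines in the CG, CHG and CHH contexts, where H is A, C or T. CHH methylation is not copied from one strand to the other at replication and has to be set again, either by RNA-directed DNA methylation (RdDM), in which small interfering RNAs guide the methyltransferase DRM2 mostly to short TEs and to the edges of long ones, or by CMT2 within long heterochromatic TEs. DDB2 recognizes UV-induced photolesions in global genome repair, and DCL4 is a Dicer-like enzyme that cuts double-stranded RNA into small RNAs.

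Before the levels are compared, the lists themselves have to be considered. The *ddb2* and *ago1* lists of hyper-DMRs hold 88 regions with the same coordinates and context, and in 71 of them the level at 24h is identical in both lists, while none is identical at time point 0. Between the *ddb2* and *dcl4* lists 129 regions, hypo-DMRs included, have the same coordinates, and none is identical at either time point. Whether the *ddb2* and *ago1* lists rest on the same 24h reads was not tested, and the genotype of such reads cannot be told apart here. Of the shared regions 531 were overlapped by an *ago1* DMR of either direction. In these the median gain in *ddb2* was 15.2 points, against 13.7 points in the 1847 shared regions without an *ago1* DMR. Leaving out the 531 regions does not remove *ddb2* regions called from such reads elsewhere.

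The sequences of 3 shared CHH regions are given because they had the largest gains in both genotypes at once among regions of up to 300 bp, and that of 1 unoverlapped region because it had the largest gain in *dcl4* among those of that length. They are read 5' to 3' on the forward strand of the TAIR10.1 reference of RefSeq. Capitals mark CHH cytosines, C where the cytosine is on the printed strand and G where it is on the other strand.
Shared, chr5:14524851-14525100, within the TE AT5TE52230 (ARNOLDY2): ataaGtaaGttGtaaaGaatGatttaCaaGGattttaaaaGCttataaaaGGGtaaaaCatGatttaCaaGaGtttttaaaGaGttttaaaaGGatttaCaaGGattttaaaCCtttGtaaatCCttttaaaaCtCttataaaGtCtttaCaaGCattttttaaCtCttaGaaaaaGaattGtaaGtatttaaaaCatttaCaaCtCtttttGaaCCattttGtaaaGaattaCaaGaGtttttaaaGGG
Shared, chr5:13814201-13814400, within the TE AT5TE49235 (ARNOLDY1): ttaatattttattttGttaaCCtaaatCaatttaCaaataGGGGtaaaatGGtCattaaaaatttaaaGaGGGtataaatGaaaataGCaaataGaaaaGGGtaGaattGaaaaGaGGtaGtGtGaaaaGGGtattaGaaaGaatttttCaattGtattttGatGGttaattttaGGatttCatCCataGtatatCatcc
Shared, chr3:11742151-11742400, within the TE AT3TE48895 (ARNOLDY2): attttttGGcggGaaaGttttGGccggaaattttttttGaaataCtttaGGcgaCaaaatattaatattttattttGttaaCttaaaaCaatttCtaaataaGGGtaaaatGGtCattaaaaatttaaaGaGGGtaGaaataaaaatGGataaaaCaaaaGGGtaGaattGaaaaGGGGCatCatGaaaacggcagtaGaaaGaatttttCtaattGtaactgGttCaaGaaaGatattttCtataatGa
Unoverlapped, chr5:7076251-7076450, within the TE AT5TE25600 (ATREP10B): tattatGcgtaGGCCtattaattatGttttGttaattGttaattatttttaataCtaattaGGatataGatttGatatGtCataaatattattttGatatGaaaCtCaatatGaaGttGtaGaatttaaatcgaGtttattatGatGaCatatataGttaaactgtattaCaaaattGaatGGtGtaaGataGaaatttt

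All 4 sequences are AT-rich and carry more CHH cytosines on the strand that is not printed. The region at chr5:14524851-14525100 holds 58 CHH cytosines, 23 on the printed and 35 on the other strand, with a GC content of 23.2%. The region at chr5:13814201-13814400 holds 48, of which 11 are on the printed and 37 on the other strand, and the region at chr3:11742151-11742400 holds 51, of which 12 are on the printed and 39 on the other strand. These last regions lie on different chromosomes but contain an identical run of 34 bases. The unoverlapped region holds 35 CHH cytosines, 8 on the printed and 27 on the other strand, and its longest run in common with any of the shared sequences was 9 bases.

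The region at chr5:14524851-14525100 had levels of 11% at time point 0 and 54.6% at 24h in *ddb2*, and of 18.7% and 52.6% in *dcl4*. Its TE lies within AT5G36870 (GSL09), a glucan synthase-like gene. The region at chr5:13814201-13814400 had 7.47% and 50.9% in *ddb2* and 13.6% and 45.3% in *dcl4* at the same time points. Exactly 50% of its length was covered, by 2 *ddb2* hyper-DMRs. Its *ddb2* levels are the mean of these hyper-DMRs and not values for the whole printed stretch. The region at chr3:11742151-11742400 had 23.8% and 55.3% in *ddb2*, and 20.2% and 52.6% in *dcl4*. In all 3 the level was more than 30 points higher at 24h than at time point 0 in both genotypes. The other regions among the 5 with the largest gains in both were chr5:9396500-9396750, with 2.71% and 34.0% in *ddb2* and 6.07% and 64.0% in *dcl4*, and chr5:13813300-13813600, with 6.55% and 40.5% in *ddb2* and 3.76% and 34.5% in *dcl4*. All 5 lie in elements of the TE families ARNOLDY1 or ARNOLDY2, and chr5:13814200-13814400 and chr5:13813300-13813600 lie in the same element, AT5TE49235. The unoverlapped region at chr5:7076251-7076450 had a level of 6.05% at time point 0 and 55.5% at 24h in *dcl4*.

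Shared regions started from a higher methylation level and gained more in *dcl4* than unoverlapped ones. At time point 0 the median level in *dcl4* was 19.5% in shared regions, with quartiles of 13.2% and 28.5%, against 12.3% in unoverlapped regions, with quartiles of 8.81% and 16.4%. At 24h the medians were 36.8% in shared and 25.7% in unoverlapped regions. The median gain was 15.5 points in shared regions, with quartiles of 12.6 and 19.7 points, against 12.4 points in unoverlapped regions, with quartiles of 10.9 and 16 points. The distributions overlapped widely in every case. Gains of at least 20 points in the CHH context were found in 546 shared regions (23%) and in 408 unoverlapped regions (11.5%). The list only holds CHH changes of at least 10 points, so smaller gains in *ddb2* at an unoverlapped region would not be seen, and such a region is not shown to lack a change in *ddb2*.

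**Figure D1:**
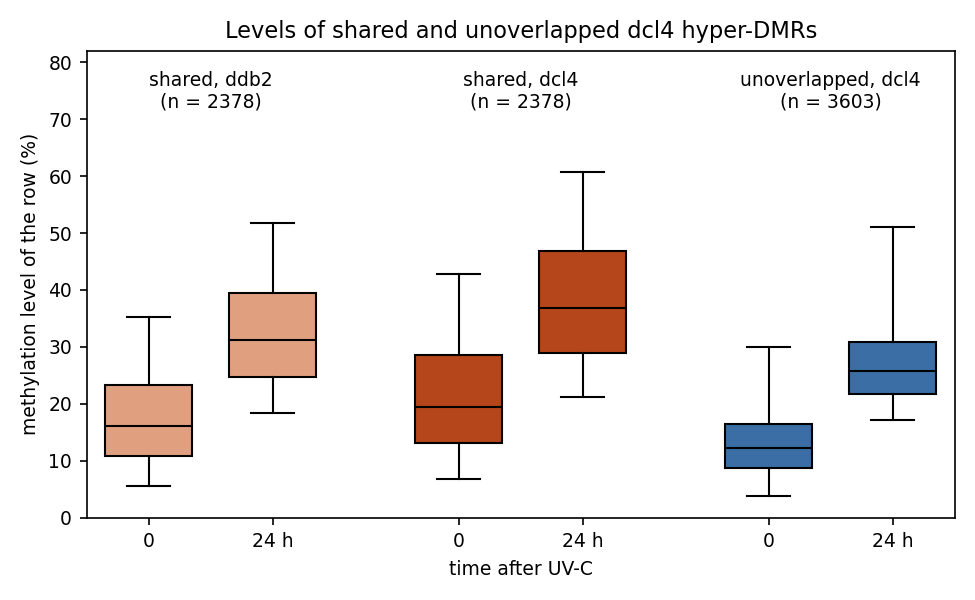
Methylation level of each region (y axis, %) at time point 0 and 24h (x axis) for the shared regions in *ddb2*, the shared regions in *dcl4* and the unoverlapped regions in *dcl4*. Boxes give the median and quartiles over regions and whiskers the range from the 5th to the 95th percentile, and the medians at 24h were 31.3%, 36.8% and 25.7%.

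The share of *dcl4* CHH hyper-DMRs that were shared with *ddb2* was larger where the starting level was above 15%. Below a level of 5% at time point 0, 54 of 332 regions (16.3%) were shared, and between 10 and 15% 431 of 1830 (23.6%). Between 20 and 30% 624 of 993 (62.8%) were shared, and between 30 and 40% 353 of 466 (75.8%). Below 15% there was no steady order within the zones. In the pericentromere 27 of 149 regions (18.1%) were shared below 5%, 143 of 888 (16.1%) between 5 and 10% and 227 of 1259 (18.0%) between 10 and 15%, against 43 of 65 (66.2%) between 30 and 40%. In the arms 27 of 183 regions (14.8%) were shared below 5%. The shares there were 37.9% between 5 and 10%, 35.7% between 10 and 15% and 77.3% between 30 and 40%.

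Within the shared regions the levels of the *ddb2* plants were lower than those of the *dcl4* plants at both time points. The *ddb2* level of a region is the mean of the overlapping *ddb2* hyper-DMRs, weighted by the overlap. At time point 0 the median was 16.1% in *ddb2* and 19.5% in *dcl4*, and at 24h 31.3% in *ddb2* and 36.8% in *dcl4*. The *ddb2* level was below that of *dcl4* in 1707 of the 2369 CHH regions (72.1%) at time point 0 and in 1827 (77.1%) at 24h. For the gain the medians were 14.0 points (*ddb2*) and 15.5 points (*dcl4*), and the gain in *ddb2* was the smaller one in 1473 CHH regions (62.2%). Over CHH regions the median difference, *ddb2* minus *dcl4*, was -3.16 points at time point 0, -4.91 points at 24h and -1.22 points for the gain.

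Most *ddb2* hyper-DMRs had other ends than the *dcl4* hyper-DMRs they covered. The *ddb2* region with most overlap was longer than the *dcl4* region in 1507 of the shared cases (63.4%), equally long in 353 (14.8%) and shorter in 518 (21.8%). Start and end were the same in 126 regions, all CHH. In these the median levels were 17.1% in *ddb2* and 19.6% in *dcl4* at time point 0, and 31.1% in *ddb2* and 35% in *dcl4* at 24h. The median difference, *ddb2* minus *dcl4*, was -3.25 points at 24h, so the order of the genotypes was kept on identical windows with a smaller difference in level. For the gain the median difference was larger there, -1.69 points against -1.22 points over all shared CHH regions. With 1 library per condition, a difference between genotypes cannot be told apart from a difference between libraries.

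Regions with a high level in one genotype tended to have a high level in the other. Across the 2369 CHH regions the Pearson correlation between both genotypes was 0.761 at time point 0 and 0.743 at 24h (Spearman 0.782 and 0.753). For the gain it was 0.405 (Spearman 0.374). These correlations describe regions, which are not independent replicates, and both genotypes share the sequence, the annotation and the thresholds of the lists. A gain of at least 20 points in both genotypes was found in 139 CHH regions, 116 of them in annotated TEs, with 59 in Helitrons and 24 in ARNOLD and BRODYAGA elements. For comparison, 1647 of all 2378 shared regions were in annotated TEs, with 494 in Helitrons and 142 in ARNOLD and BRODYAGA elements.

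**Figure D2:**
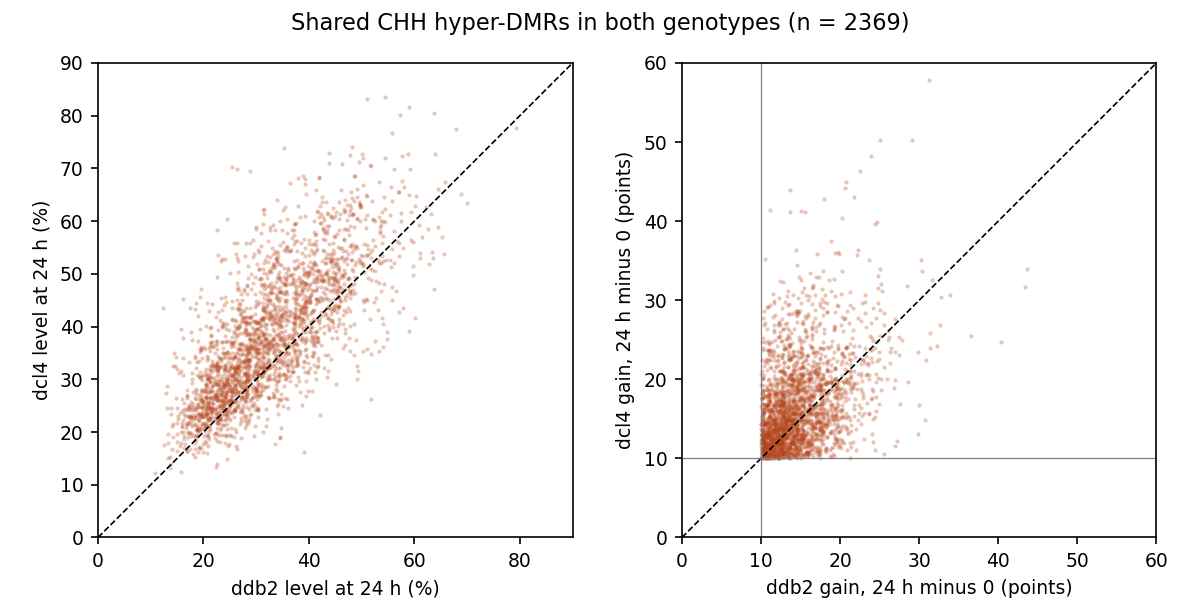
Each point is 1 of the 2369 shared CHH regions, with the level at 24h (left, %) and the gain (right, points) in *ddb2* on the x axis and in *dcl4* on the y axis. The dashed line marks equal values and the grey lines the minimum gain of 10 points in the lists, and 77.1% of the regions lay above the dashed line for the level at 24h.

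How far the regions of both lists coincided was in part fixed by the rule of 50% coverage and is given as a description. Of the shared regions 1192 (50.1%) lay wholly within *ddb2* hyper-DMRs, 1074 extended past the best *ddb2* region at 1 end and 112 at both ends. A single *ddb2* region overlapped 2297 of them and at least 2 overlapped 81. Coverage was exactly 50% in 154 regions, with a median gain of 12.9 points in *ddb2* and 15.8 points in *dcl4*. Just inside the threshold were chr1:6743000-6743700, a region in the TE family SIMPLEHAT1 with 20% and 37.4% in *ddb2* and 24.8% and 44.6% in *dcl4*, and chr1:7024300-7024500 in ATMU6N1, with 14.0% and 27.0% in *ddb2* and 12.2% and 36.0% in *dcl4*. Just outside were chr1:14675500-14676750, covered over 48.0% of its length, with 10.1% and 22.6% in *ddb2* and 11% and 28.3% in *dcl4*, and chr3:18062450-18063200 in ATTIRX1C, covered over 46.7%, with 37.9% and 55.0% in *ddb2* and 22.7% and 55.7% in *dcl4*. The levels on both sides of the threshold thus overlapped. Seen from the longer list, 2084 of 9752 *ddb2* hyper-DMRs (21.4%) were covered over at least 50% by *dcl4* hyper-DMRs, and 6797 (69.7%) were not overlapped by any.

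Shared regions were longer than unoverlapped ones, but length was not independent of the choice. Coverage was taken over the length of a region, and a longer region is more readily touched by a *ddb2* hyper-DMR. The median length was 300 bp in shared and 250 bp in unoverlapped regions, with means of 311 and 268 bp. A length of 200 bp, the size of a single window, was found in 578 shared regions (24.3%) and 1473 unoverlapped ones (40.9%), and a length over 400 bp in 282 shared (11.9%) and 147 unoverlapped regions (4.08%). The longest shared region, chr4:4066200-4067300, was an intergenic stretch of 1100 bp in the pericentromere of chromosome 4, with 15.2% and 30.3% in *ddb2* and 22.9% and 38.6% in *dcl4*.

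Almost all shared regions were in the CHH context. Only 9 of the 103 CHG hyper-DMRs of *dcl4* were shared, against 68 unoverlapped ones, and each of the 9 overlapped a shared CHH region. In the CHG regions the level at 24h was higher in *ddb2* than in *dcl4* in 7 of 9, opposite to the CHH regions, but the median difference of 5.23 points had an interval over regions from -0.177 to 7.97 points. The CHG region with the largest gains in both was chr4:5557550-5557900, an intergenic stretch with 30.6% and 71.2% in *ddb2* and 30.7% and 60.9% in *dcl4*. Conversely, 211 shared CHH regions (8.91%) were also covered over at least 50% by a CHG hyper-DMR of *ddb2* and 31 by one of *dcl4*. The *ddb2* list holds 1021 CHG hyper-DMRs and the *dcl4* list 103, so these counts are not compared between genotypes. They have no background here, since unoverlapped regions by definition meet no *ddb2* hyper-DMR of any context.

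The location on the chromosome differed between both sets, a property that the choice of regions did not use. Of the shared regions 758 (31.9%, exact 95% interval 30 to 33.8%) lay in the pericentromere, the gene-poor stretch around each centromere, against 2280 of the unoverlapped regions (63.3%, 61.7 to 64.9%). Intervals of this kind cover counting error over regions only, and neighbouring regions are not independent. In the chromosome arms 1620 of 3135 *dcl4* hyper-DMRs (51.7%) were shared and in the pericentromere 758 of 3216 (23.6%). Within 1 Mb of the middle of the pericentromere 233 of 1549 (15%) were shared, between 1 and 2 Mb 384 of 1349 (28.5%), and between 4 and 5 Mb 161 of 292 (55.1%). Farther out the share stayed between 49.8 and 57.9% up to 15 Mb. All 5 chromosomes took part, with 334 shared regions on chromosome 4 to 620 on chromosome 1. A protein-coding gene was found within 2 kb of 1575 shared regions (66.2%) and of 1290 unoverlapped ones (35.8%). Within the arms these shares were 79.9% and 68.9%, and within the pericentromere 36.9% and 16.6%, each with the shared regions first.

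Over the whole genome the classes of the annotation held similar shares of both sets. TEs held 1659 shared regions (69.8%, 67.9 to 71.6%) and 2541 unoverlapped ones (70.5%, 69.0 to 72%), protein-coding genes (PCG) 106 (4.46%) and 183 (5.08%), and intergenic regions 613 (25.8%) and 879 (24.4%). Within the arms the classes differed. PCG held 89 of 1620 shared regions there (5.49%, 4.43 to 6.72%) and 141 of 1323 unoverlapped ones (10.7%, 9.05 to 12.4%), and TEs 69.3% of the shared and 64.2% of the unoverlapped regions, a difference of 5.07 points (1.61 to 8.54 points). In the pericentromere PCG held 2.24% of the shared and 1.84% of the unoverlapped regions, and TEs 70.7% and 74.2%. Of the 106 shared regions in PCG, those with the largest gains in both genotypes, named after their values were seen, were chr2:7370950-7371300 in AT2G16970 (MEE15), with 23.4% and 48.5% in *ddb2* and 18.2% and 68.5% in *dcl4*, and chr3:20207950-20208250 in AT3G54590 (HRGP1), a hydroxyproline-rich cell wall glycoprotein, with 4.94% and 29.7% in *ddb2* and 6.25% and 46.1% in *dcl4*.

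Shared regions lay in shorter TEs than unoverlapped ones. The median length of the TE at the midpoint was 1188 bp (1114 to 1245 bp) over 1647 shared regions and 3742 bp (3520 to 4010 bp) over 2497 unoverlapped regions. TEs over 4000 bp held 343 of these shared regions (20.8%) and 1203 of the unoverlapped ones (48.2%). The difference was found in both zones, with medians of 1112 and 2248 bp in the arms and of 1442 and 4367 bp in the pericentromere, shared regions first. In the arms 261 of 422 hyper-DMRs (61.8%) in TEs of up to 500 bp were shared, 138 of 271 (50.9%) in TEs of 2000 to 4000 bp, and 43 of 191 (22.5%) in TEs over 8000 bp. In the pericentromere the same classes had 120 of 265 (45.3%), 62 of 373 (16.6%) and 80 of 551 (14.5%).

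**Figure D3:**
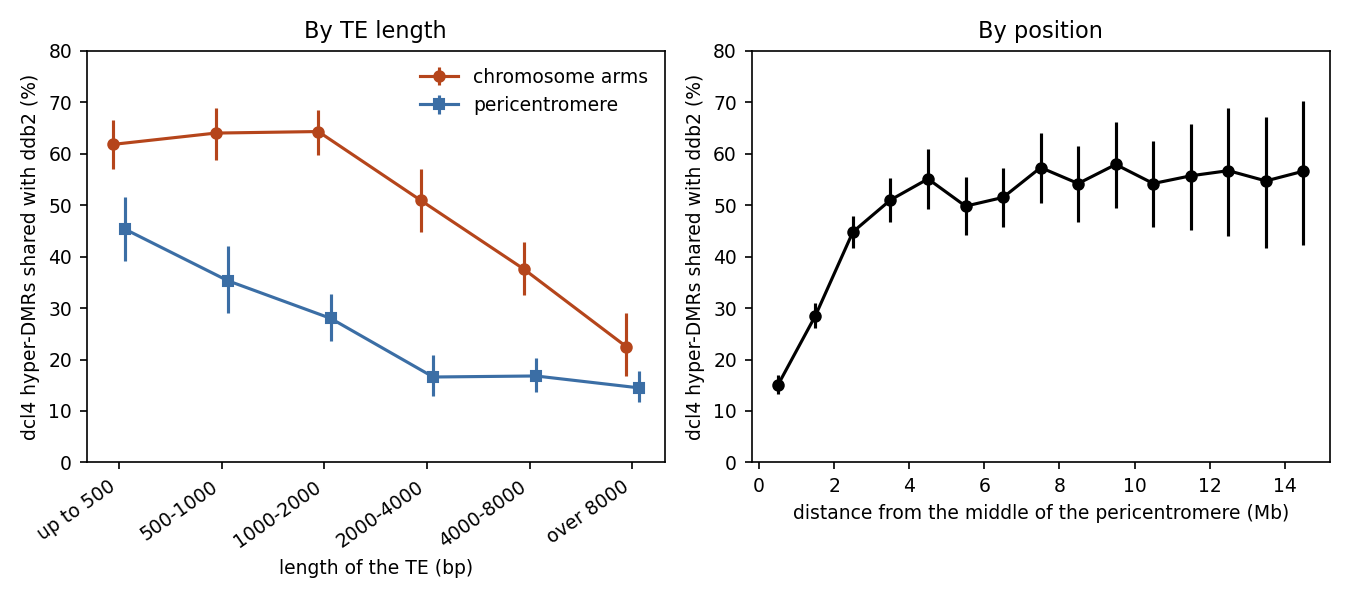
Percentage of *dcl4* hyper-DMRs shared with *ddb2* (y axes, %) by the length of the TE at the midpoint in both zones (left, bp) and by distance from the middle of the pericentromere (right, Mb, bins of 1 Mb with at least 50 regions). Bars are exact 95% intervals over regions, and the left panel falls to 22.5% in the arms and 14.5% in the pericentromere for TEs over 8000 bp.

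Shared regions also lay nearer to the ends of TEs. The median distance from the midpoint of a region to the nearer end of its TE was 179 bp (166 to 193 bp) in shared and 623 bp (580 to 679 bp) in unoverlapped regions, and 884 (53.7%) against 698 (28.0%) had a midpoint within 200 bp of an end. A short TE has no distant interior, so the distance was also compared in long elements. In TEs over 2000 bp the medians were 668 bp in shared and 1268 bp in unoverlapped regions. A closer comparison was possible in 269 TEs with a median length of 4957 bp that held both kinds, 365 shared and 461 unoverlapped regions. Within the same TE the shared regions were nearer to the end in 172 elements and farther in 97, with a median difference of -284 bp (-403 to -148 bp), shared minus unoverlapped. In these elements their level at time point 0 in *dcl4* was higher in 168 and lower in 101, with a median difference of 2.68 points. A further 1131 TEs held shared and no unoverlapped regions, and 1581 the reverse. Most of the 1400 TEs with shared regions, 1197, had a single one.

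The elements with most shared regions were AT3TE47185 and AT3TE70410, with 5 each and no unoverlapped region. AT3TE47185 is an ARNOLDY2 element of 5332 bp on chromosome 3 (11316210 to 11321541) in which the gains of the shared regions ranged from 15.3 to 24.9 points in *ddb2* and from 13.0 to 40.4 points in *dcl4*. AT3TE70410 is a META1 element of 5088 bp (17363070 to 17368157), a Copia-type retrotransposon, with gains from 11.9 to 14.9 points in *ddb2* and from 10.2 to 17.6 points in *dcl4*. In the VANDAL22 element AT3TE62450 of 14001 bp, by contrast, 4 shared regions stood beside 5 unoverlapped ones.

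The families of TEs differed between both sets. Helitrons, DNA transposons that replicate by a rolling circle, held 494 of 1647 shared regions in TEs (30%, 27.8 to 32.3%) and 375 of 2497 unoverlapped ones (15%, 13.6 to 16.5%). Gypsy elements, long terminal repeat retrotransposons that fill the pericentromeres, held 181 (11%, 9.52 to 12.6%) of the shared and 881 (35.3%, 33.4 to 37.2%) of the unoverlapped regions. CACTA elements held 16 (0.971%) and 150 (6.01%), hAT elements 81 (4.92%) and 56 (2.24%), and ARNOLD and BRODYAGA elements 142 (8.62%) and 102 (4.08%), each with the shared regions first. Copia elements held similar shares, 131 (7.95%) and 214 (8.57%). In the annotation Helitrons make up 32.0% of the bases of TEs and Gypsy elements 28.0%.

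Part of this went with the location. In the arms Helitrons held 33.4% of the shared and 21.6% of the unoverlapped regions in TEs, and in the pericentromere 22.9% and 11.7%. The Gypsy shares were 25.7% of the shared and 50.1% of the unoverlapped regions in the pericentromere. In the arms they were 3.95% (2.88 to 5.27%) and 5.76% (4.27 to 7.56%), with overlapping intervals.

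**Figure D4:**
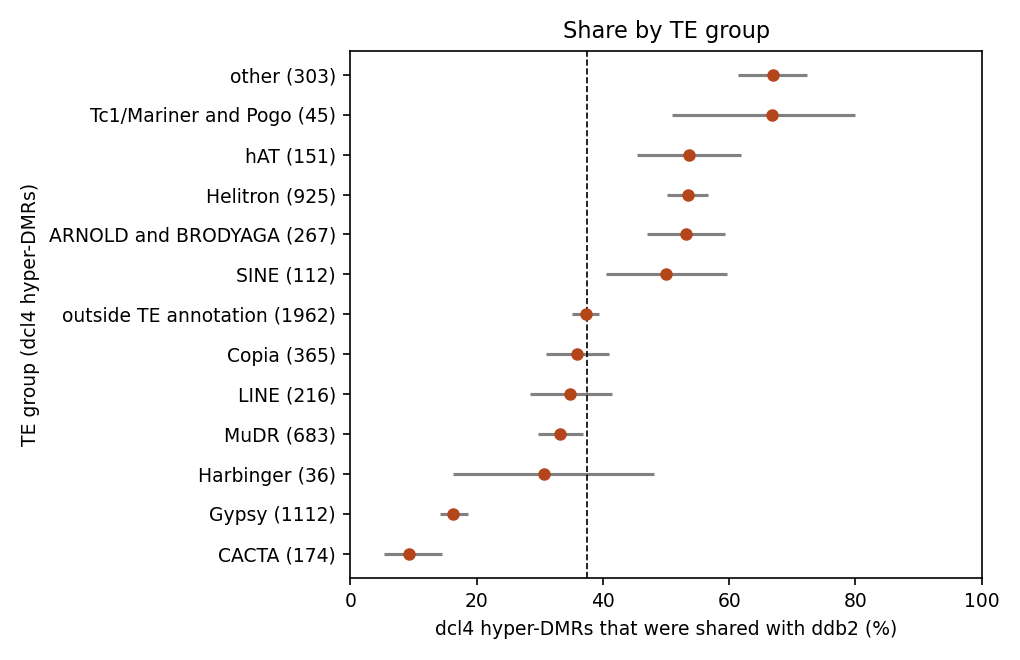
Percentage of the *dcl4* hyper-DMRs of each TE group that were shared with *ddb2* (x axis, %), with the number of *dcl4* hyper-DMRs in parentheses on the y axis and exact 95% intervals over regions. The dashed line is the share over all *dcl4* hyper-DMRs, 37.4%, and the groups ran from 9.20% in CACTA to 67.0% in the families placed in no named group.

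Among single families HELITRONY3 held most shared regions, 115 of its 159 *dcl4* hyper-DMRs (72.3%, 64.7 to 79.1%) in 90 elements. Its shared regions had median levels of 17.8% and 34.8% in *ddb2* and of 25.6% and 44.9% in *dcl4* at time point 0 and 24h. The one with the largest gain in *dcl4*, chr4:5612750-5612950, had 4.90% and 28.8% in *ddb2* and 21.3% and 69.5% in *dcl4*. The Gypsy family ATGP1 came next in number with 72 of 143, and the Helitron family ATREP3 had 68 of 118 (57.6%). In ATREP3 the region with the largest gain in *dcl4*, chr1:19085600-19085800, had 17.0% and 41.4% in *ddb2* and 5.53% and 45.2% in *dcl4*. Starting levels at such regions could thus be lower in either genotype.

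The retrotransposon family META1 had 56 of 74 regions shared (75.7%), the LINE family ATLINE1A 43 of 66 (65.2%) and SIMPLEGUY1 39 of 58 (67.2%). In META1 the region with the largest gain in *dcl4*, chr3:16064050-16064250, had 9.96% and 21.7% in *ddb2* and 7.11% and 37% in *dcl4*. In ATLINE1A it was chr2:1587400-1587650, with 17.8% and 37.2% in *ddb2* and 35.9% and 57.3% in *dcl4*. In SIMPLEGUY1 it was chr4:16729650-16729850, with 21.4% and 42.0% in *ddb2* and 24.0% and 68.2% in *dcl4*. In these regions, picked for their gain in *dcl4*, *ddb2* gained less in every case.

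Gypsy families did not behave as 1 group. ATGP1 had 72 of 143 regions shared (50.3%), and its region with the largest gain in *dcl4*, chr2:5813800-5814150, had 18.9% and 30.1% in *ddb2* and 10.5% and 51.9% in *dcl4*. ATHILA2, a family confined in these sets to the pericentromere, had 23 of 199 shared (11.6%, 7.47 to 16.8%). All families named ATHILA together held 84 shared regions (5.10% of those in TEs) and 703 unoverlapped ones (28.2%). The heat-responsive Copia family ATCOPIA78, known as ONSEN, had 18 of 28 regions shared (64.3%, 44.1 to 81.4%) in 8 elements, with median levels of 30.7% and 46.2% in *ddb2* and of 34.2% and 49.5% in *dcl4*.

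The 3 unoverlapped regions with the largest gains in *dcl4* were in Helitrons as well. Beside the ATREP10B region shown above, chr1:16304800-16305000 in ATREP18 had 13.4% and 61.1% in *dcl4*, and chr2:12801500-12801700 in ATREP3 had 9.78% and 56.7%. All 3 were 200 bp long.

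Shared regions were poorer in G and C. The median GC content was 32.0% (31.6 to 32.1%) in shared and 35.7% (35.5 to 36.0%) in unoverlapped regions, and CHH cytosines numbered 24.8 and 27.6 per 100 bp over both strands. The difference in GC content was present in the arms, with 31.0% and 34.8%, and in the pericentromere, with 33.6% and 36.0%, shared regions first. Within the 269 TEs that held both kinds the median difference was -0.571 points (-1.64 to 0.286 points), shared minus unoverlapped, an interval that includes 0. The trinucleotides CAA and CTA, which CMT2 methylates best, made up 30.8% (30.5 to 31.1%) of CHH sites in shared and 29.9% (29.6 to 30.2%) in unoverlapped regions. In the pericentromere the order was turned, with 29.8% and 30%.

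The other genotypes, whose levels the choice of regions did not use, behaved in several ways at the shared regions. A WT hyper-DMR of the same context covered at least 50% of 117 shared regions (4.92%, 4.09 to 5.87%) and of 87 unoverlapped ones (2.41%, 1.94 to 2.97%), against 3.40% of all *dcl4* hyper-DMRs. For *uvr3 phrI*, which lacks both photolyases, hyper-DMRs covered 36 (1.51%) and 26 (0.722%), against 1.09% of all. For *ago1*, a weak allele of the small RNA effector AGO1, hyper-DMRs covered 300 (12.6%, 11.3 to 14.0%) and 46 (1.28%, 0.936 to 1.70%), against 5.54% of all. Since the *ago1* and *ddb2* lists hold identical levels at 24h, this last difference is not independent of the choice.

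Shared regions were also more often places where *uvr3 phrI* and WT plants lost methylation, but not *ago1* plants. The hypo-DMR lists hold 2380 regions in *uvr3 phrI* and 890 in WT, so their shares are not compared with each other. Shared regions started from a higher level in *dcl4*, and the shares were not compared at equal starting levels. A *uvr3 phrI* hypo-DMR covered 387 shared regions (16.3%, 14.8 to 17.8%) and 184 unoverlapped ones (5.11%, 4.41 to 5.88%), against 9.51% of all *dcl4* hyper-DMRs. The 394 *uvr3 phrI* hypo-DMRs there had medians of 42.5% at time point 0 and 25.5% at 24h, while the shared regions had median gains of 14.6 points in *ddb2* and 15.4 points in *dcl4*, from levels of 19.1% and 24.6%. In the arms a *uvr3 phrI* hypo-DMR was found at 17.6% of shared and 7.03% of unoverlapped regions, and in the pericentromere at 13.5% and 3.99%. WT hypo-DMRs covered 85 shared (3.57%, 2.86 to 4.4%) and 62 unoverlapped regions (1.72%, 1.32 to 2.20%), against 2.42% of all, with median WT levels of 50.5% at time point 0 and 27.1% at 24h at the shared ones. These WT values rest on the WT library at time point 0, which had by far the fewest mapped reads. For *ago1* hypo-DMRs the order of both sets was the reverse, with 72 (3.03%) and 159 (4.41%), against 3.98% of all. Since the *ago1* and *ddb2* lists hold identical levels at 24h, these *ago1* shares are not independent of the choice either.

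**Figure D5:**
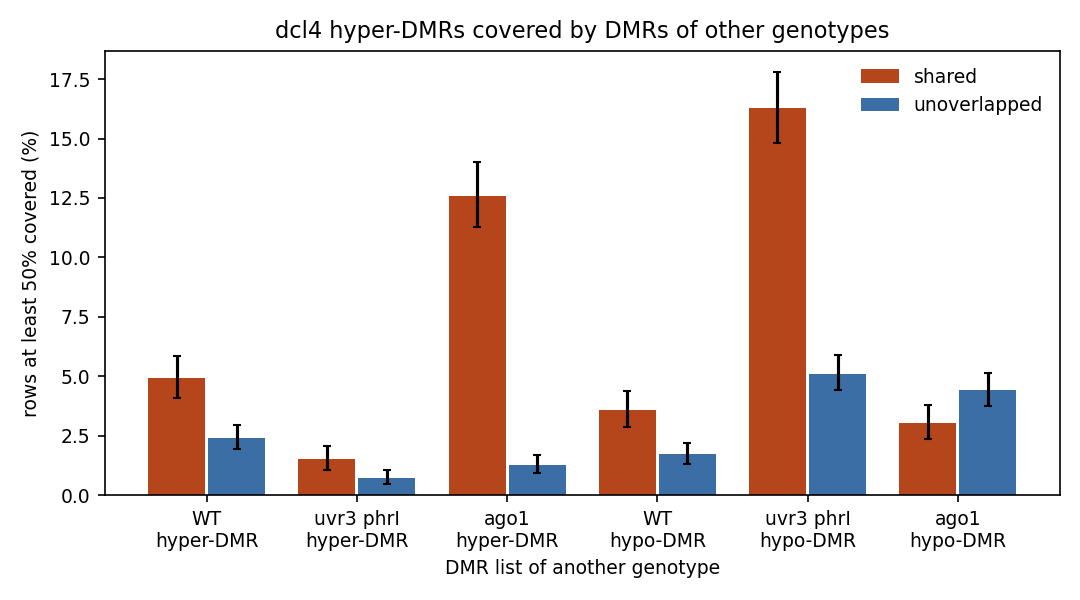
Percentage of shared and unoverlapped regions (y axis, %) of which at least 50% was covered by a DMR of the same context in WT, *uvr3 phrI* and *ago1* (x axis), with exact 95% intervals over regions. The widest gap apart from *ago1* hyper-DMRs was that for *uvr3 phrI* hypo-DMRs, 16.3% in shared and 5.11% in unoverlapped regions.

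Few shared regions met a photolesion region, a stretch in which DNA precipitated with antibodies against UV damage was enriched over input at time point 0. A photolesion region of any of the 5 genotypes overlapped 52 shared (2.19%, 1.64 to 2.86%) and 102 unoverlapped regions (2.83%, 2.31 to 3.43%), against 2.65% of all *dcl4* hyper-DMRs. The shares for *ddb2* were 9 (0.378%) and 22 (0.611%), for *dcl4* 12 (0.505%) and 30 (0.833%). Their intervals overlapped in each case. By the read numbers of the study only a small part of the precipitated reads mapped, and every genotype was set against the WT input. A region without a photolesion region is therefore not shown to be free of damage. Only 4 shared regions met photolesion regions of both *ddb2* and *dcl4*. The one with the highest enrichment, chr3:12670300-12670800 in LIMPET1, was 16.9-fold enriched in *ddb2* and 11.6-fold in *dcl4*, and its levels were 16.9% and 37.6% in *ddb2* and 25.1% and 43.3% in *dcl4*.

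Of 28 genes of DNA methylation, small RNA and photolesion repair pathways, 5 (17.9%) had a shared region within 2 kb and 3 (10.7%) an unoverlapped one. Over all 27206 annotated PCG these shares were 7.54% and 5.97%, and with so few listed genes nothing is read from the difference. Near PHR1 (AT1G12370), the gene of the CPD photolyase, the region chr1:4209400-4209600 lay 450 bp upstream, with 27.8% and 42.3% in *ddb2* and 42.3% and 61.3% in *dcl4*. Near MET1 (AT5G49160), which maintains CG methylation, chr5:19930400-19930700 lay 1530 bp upstream in a HELITRONY1B element, with 28.4% and 46.7% in *ddb2* and 25.8% and 47.0% in *dcl4*. Upstream of MET1 stood also 1 of the unoverlapped regions, 580 bp from the gene. Near CLSY1 (AT3G42670), a remodeller that recruits RNA polymerase IV, chr3:14762050-14762350 lay 1966 bp upstream, with 1.31% and 28.2% in *ddb2* and 10.2% and 30.1% in *dcl4*. Near DML2 (AT3G10010), a DNA demethylase, chr3:3080350-3080700 lay 1114 bp downstream in an ATREP2 element, with 23.2% and 45.8% in *ddb2* and 28.8% and 47.6% in *dcl4*. The fifth region, chr5:6869250-6869550, overlapped the start of DCL4 (AT5G20320) itself, the gene mutated in *dcl4*, and had 10.4% and 23.8% in *ddb2* and 14.8% and 44.1% in *dcl4*. The expression of these genes was not analysed here.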

How the data were processed

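WGBS libraries of *ddb2* and *dcl4* leaves at time point 0 and 24h, 1 each, were compared through the lists of DMRs, beside those of the other 3 genotypes. The authors aligned WGBS reads with BSMAP on TAIR10, tested sliding windows of 200 bp for a change between both times and merged them, requiring at least 10 points in CHH, 20 points in CHG and 40 points in CG. The deposited methylation levels are scores from 0 to 1, the fraction of methylated calls with a decimal comma, and were turned into percent. The deposited fold enrichment of photolesion regions is a ratio over the WT input from MACS2 2.1. The authors' column of methylation change was not used, since gains were computed from the levels. Read numbers are not part of the lists used, so the depth behind the level of a single region is unknown. Mapped reads per library, as reported by the study, were uneven at time point 0. They were fewest for WT, and fewer for *ddb2* than for *dcl4*, whereas *ddb2* and *dcl4* had similar numbers at 24h. Intervals cover counting error over regions only.

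The members, gene lists and TE groups were chosen with earlier results of these data known. Lists were read as half-open intervals, so that the first base is 1 past the listed start. *ddb2* holds 7 hyper-DMRs listed again with the same coordinates and context. TEs and genes came from the annotation columns of a deposited small RNA table, with 31189 TEs, and the class was taken at the midpoint, TE first. TE groups followed the family names. The 60 abundance columns of the 6 small RNA tables match no sample and were not used. Each chromosome was cut into bins of 100 kb, and its pericentromere was taken as the longest unbroken series of bins with a coverage by PCG, averaged over 11 bins, under 50% of the median of the chromosome. All 26719 PCG matched by name overlapped the gene of that name in TAIR10.1, 5083 of them with the same start and end, and 541 of 631 tRNA genes had the same start and end. Regions named were the 5 CHH regions and the CHG region with the largest smaller gain of both genotypes, the longest, the one with the largest gain in each of the 6 families with most shared regions, those nearest the threshold, 3 unoverlapped ones, the region with photolesion regions of both genotypes and highest enrichment, and those within 2 kb of 28 listed genes. Shares have exact Clopper-Pearson intervals at 95%, and intervals of medians use order statistics. No test was run, since each condition has 1 library and regions are not replicates. Overlap and interval functions were tested on simulated data. Python 3.11.15, numpy 2.4.6, pandas 2.3.3, scipy 1.17.1 and matplotlib 3.10.9 were used. Alternatives covered the overlap rule, contexts, the comparison set, means, the class rule, zones and *ago1* overlaps.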

Additional observations from a re-analysis of the deposited data

Results flagged for a closer look

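In 3 lists other genotypes moved in the opposite direction to *ddb2* and *dcl4* over the same 24h. Of the shared regions, 387 (16.3%, against 9.51% of all *dcl4* hyper-DMRs) were covered over at least 50% by a *uvr3 phrI* hypo-DMR, 85 (3.57%, against 2.42%) by a WT hypo-DMR and 72 (3.03%, against 3.98%) by an *ago1* hypo-DMR. The share for *ago1* was below that over all *dcl4* hyper-DMRs, so the shared regions do not stand out there. In 22 of them (0.925%, against 0.425% of all) both WT and *uvr3 phrI* had a hypo-DMR. Each genotype has 1 library per time point, so the difference in direction was not tested. The WT library at time point 0 had by far the fewest mapped reads, which limits the WT values. The *ago1* and *ddb2* lists hold identical levels at 24h in many regions, so the *ago1* direction is not independent of the choice of regions.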

How the results depend on the processing

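Of 73 alternatives, 46 left the value within its interval (for counts, within 1.5 times), 27 moved it and none reversed a difference whose interval excluded 0. The difference in the share in TEs was -0.760 points over all regions, with an interval that includes 0. It was positive in the arms, with 80% coverage (0.607 points) and with a TE over at least 50% of the region (0.106 points). Differences are shared minus unoverlapped unless named. The number of shared regions fell to 126 with identical coordinates and to 647 with gains of at least 15 points in each list. With means the difference in gain was 2.46 points and in length 43.3 bp. With 1 bp of overlap the difference in level at time point 0 was 6.62 points, and with 80% coverage 8.70 points and -34.3 points for the share in the pericentromere. In the arms alone the differences were 2.55 points for the gain, 5.07 points for the share in TEs, -1136 bp for TE length, 11.8 points for Helitrons, -1.81 points for Gypsy and -200 bp for the distance to the TE end. In the pericentromere alone they were 3.16 points for the level at time point 0, -3.45 points for the share in TEs, -2925 bp for TE length, 11.2 points for Helitrons, -528 bp for the distance to the TE end and 9.47 points for *uvr3 phrI* hypo-DMRs. With the shortest TE at the midpoint TE length differed by -2275 bp. On identical coordinates *ddb2* minus *dcl4* was -3.25 points at 24h, -1.99 at time point 0 and -1.69 for the gain. With 1 bp of overlap the differences for hyper-DMRs were 3.89 points in WT and 14.8 points in *ago1*, and 14.1 points for *uvr3 phrI* hypo-DMRs. In TEs only the CHH cytosines differed by -3.20 per 100 bp. The alternatives by zone for gain, level, length of regions, Helitrons, Gypsy, TE ends and *uvr3 phrI* hypo-DMRs, those on overlap for the share in the pericentromere and for *uvr3 phrI* hypo-DMRs, and those without *ago1* overlaps were chosen after seeing the data. No paired analysis was possible because each condition has 1 library and no test was run.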
